A study of Mus musculus with 14 samples.

Results

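Border-associated macrophages are the resident macrophages of the meninges, the perivascular spaces and the choroid plexus. They are kept apart from microglia, the macrophages of the parenchyma, by the mannose receptor Mrc1, the chemokine Pf4, the haemoglobin scavenger receptor Cd163 and the coagulation factor subunit F13a1. They are known for endocytic uptake at the vessel wall, and a subset presents antigen on MHC class II. Clec7a (Dectin-1) is a pattern recognition receptor of myeloid cells that binds beta-glucans and is known to rise in disease-associated microglia.

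The cells were chosen on measured values. A barcode was taken as a border-associated macrophage when it had at least 500 genes, at least 1000 unique molecular identifiers (UMIs) and at most 15% mitochondrial UMIs, held Tyrobp, the signalling adaptor of myeloid receptors, held at least 3 of the 6 genes Mrc1, Pf4, Cd163, F13a1, Cbr2 and Lyve1, and had at least 5 UMIs of these 6 per 10000. The rule found 465 macrophages among 96802 barcodes that passed the quality limits, or 0.48%, and among 67525 barcodes with Tyrobp. Their number per library lay between 12 and 65, so all 14 libraries entered the tests of summed counts.

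The tissue was the whole spinal cord at age P115-120 days, which was dissociated with enzymes, freed of myelin and captured with 10x Chromium 3' v3.1 chemistry. The SOD1G93A group (3 libraries, strain B6SJL-Tg(SOD1*G93A)1Gur/J) carried the mutant human SOD1 transgene used to model amyotrophic lateral sclerosis. The Clec7a-KO group (4 libraries, strain B6.129S6-Clec7atm1Gdb/J) is the Clec7a knockout line, the SOD1G93A/Clec7a-KO group (4 libraries) had both alterations, and the nTg group (3 libraries) is given by that name alone. The labels give no strain background for the last 2 groups and do not say whether animals were littermates, so strain and genotype cannot be told apart. Nothing in the labels says how many animals went into a library, and p-values measure the spread between these libraries. By its title, the study asks what suppression of Clec7a does to microglia and to disease in such models.

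The files held 108892 barcodes and between 28819852 and 141204910 UMIs per library. The summed UMIs of the macrophages were between 101080 and 885022 per library. Pairs of libraries shared between 1 and 33 barcode sequences among those that passed the quality limits. Libraries numbered 13, 15 and 16 in the labels (SOD1G93A/Clec7a-KO replicates 3 and 4 and Clec7a-KO replicate 4) had the lowest Apoe in the macrophages, between 20200 and 22200 CPM, followed by Clec7a-KO replicate 2 at 24500, and the SOD1G93A and nTg groups have no overlapping range of library numbers. Xist exceeded Ddx3y in 4 of the 14 libraries, namely 2 of 3 in nTg, 0 of 3 in SOD1G93A and 1 of 4 in each of Clec7a-KO and SOD1G93A/Clec7a-KO.

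The cells carried the markers of their label beyond those that chose them. Levels are given as counts per 1000000 UMIs (CPM) of the summed macrophages of a library, scaled by TMM factors. Of 27 identity genes outside the rule, none was at 0, and 17 were higher than in microglia of the same library in 14 of 14 libraries, as a description. Among the exceptions, Csf1r was higher in 0 libraries and Apoe in 7. The microglia used for comparison held at least 3 of 7 microglial genes and none of the 6 rule genes. Ms4a7, a membrane protein of tissue macrophages, averaged 699 CPM in the macrophages and 34.4 in microglia. Dab2, an endocytic adaptor, averaged 913 and 27.2 CPM, and the scavenger receptor Stab1 854 and 72.6 CPM. The C-type lectin Mgl2 averaged 460.45 CPM against 0.12 CPM. With 5 CPM added to both levels, the median log2 ratio over libraries was 6.77 for the antigen presentation gene H2-Eb1 and 6.47 for H2-Aa. Of the 12 microglial markers, 7 chose the comparison microglia, among them P2ry12, Tmem119, Sall1, Siglech, Olfml3 and Gpr34, so their lower level in the macrophages is no finding. Of the others, P2ry13, Cx3cr1, Sparc and Crybb1 were higher than in microglia in no library, with the fractalkine receptor Cx3cr1 at 501 against 1430 CPM. Fcrls stood at 862 against 809 CPM and was higher in the macrophages in 9 libraries. In microglia Fcrls averaged 340 CPM without and 1280 CPM with the transgene, so the pooled means do not hold for each group.

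Several defining markers of other blood cells were absent, while others on the same lists were present. The monocyte genes Chil3, F10 and Hp, the neutrophil genes Retnlg, Ly6g and Cxcr2, the B cell gene Ms4a1, the dendritic cell gene Ccr7 and the erythroid gene Alas2 were at 0 in all 14 libraries, and Ly6c2, Plac8, Flt3 and Xcr1 averaged under 10 CPM. The summed level of the 12 monocyte genes averaged between 7320 and 10200 CPM over the groups, most of it Lyz2, which averaged 9520 CPM without and 7910 with the transgene. The 5 B cell genes summed to between 162 and 199 CPM, most of it Ighm, and the 8 neutrophil genes to between 72.5 and 126 CPM, most of it Csf3r and Mmp9. The 10 dendritic cell genes summed to 50.7 CPM in nTg, 152 in Clec7a-KO, 55.3 in SOD1G93A and 54.8 in SOD1G93A/Clec7a-KO. In Clec7a-KO that sum ranged from 63.2 to 291 CPM, against a mean of 51.6 in microglia. Of the dendritic cell genes, Cd209a and Batf3 averaged 10 CPM or more. Endothelial transcripts were present. The summed level of 6 endothelial genes ranged from 69.7 to 5210 CPM in nTg, from 37.3 to 3220 in Clec7a-KO, from 565 to 1330 in SOD1G93A and from 1320 to 4070 in SOD1G93A/Clec7a-KO, and none of the 6 passed the edgeR test in any contrast between groups.

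Clec7a, the targeted gene, was near 0 in both knockout groups. The macrophages of the Clec7a-KO group held 1 Clec7a UMI in all (2.43, 0, 0 and 0 CPM) and those of SOD1G93A/Clec7a-KO held 2 (0, 2.77, 7.1 and 0 CPM). Clec7a stood at 272, 302 and 218 CPM in nTg and at 281, 563 and 367 CPM in SOD1G93A. The ratio of nTg to Clec7a-KO over pooled counts was 208 (95% interval 36.8 to 8260) and that of SOD1G93A to SOD1G93A/Clec7a-KO 219 (60.3 to 1810), both covering counting error only. Clec7a was the single gene called among 3406 tested (0.0294%) in each comparison of a knockout group with its Clec7a-competent counterpart (edgeR, adjusted p = 4.5e-06 without and 3.12e-07 with the transgene). The annotation used lists Clec7a as a polymorphic pseudogene at chromosome 6, 129461591 to 129472779, on the minus strand of GRCm38. Reads from the human transgene have no gene of their own in the files.

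Sod1 counts were set beside the labels. Whether reads of the human transgene were counted under mouse Sod1 or Gm8566 was not tested, and both genes are among those called with the transgene. Sod1 stood between 1660 and 3520 CPM in the macrophages of the 7 transgenic libraries and between 29.8 and 148 CPM in the other 7 (log2 fold change 4.90, edgeR adjusted p = 2.04e-07). Gm8566, listed as a processed pseudogene at chromosome 6, 67205619 to 67206083, had no UMI in the macrophages of the 7 libraries without the transgene, and was at least 956-fold higher with it, taken against 3 UMIs over the group. In GRCm38, Spp1 lies at chromosome 5, 104435118 to 104441050, Cst7 at chromosome 2, 150570415 to 150578944, Cd36 at chromosome 5, 17781690 to 17888801, and Apoe at chromosome 7, 19696109 to 19699188.

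The rule left a border zone. Among the macrophages, 100 held 3 of the 6 rule genes, 132 held 4, 164 held 5 and 69 held all 6. Outside it, 70 barcodes with Tyrobp reached the sum with 2 of the 6 genes, 27 held 3 genes but stayed under the sum, and 36 macrophages had a sum between 5 and 10 per 10000. Pf4 and Mrc1 were lower with the transgene, as a description, with no overlap of libraries, whereas Cd163, F13a1, Cbr2 and Lyve1 overlapped, with Cbr2 at 160 to 760 CPM with the transgene and 268 to 541 CPM without it. Pf4 stood at 2420, 2390 and 2210 CPM in nTg, at 2140, 1940, 2630 and 2600 in Clec7a-KO, at 577, 1070 and 949 in SOD1G93A and at 1400, 1170, 1440 and 1240 in SOD1G93A/Clec7a-KO. Mrc1 averaged 1780 CPM ± 268 (SD, n = 3) in nTg, 1490 ± 284 (n = 4) in Clec7a-KO, 1000 ± 165 (n = 3) in SOD1G93A and 936 ± 150 (n = 4) in SOD1G93A/Clec7a-KO. The library median of the rule sum per 10000 UMIs was 60.0 ± 12.6 (n = 3), 52.9 ± 14.2 (n = 4), 30.4 ± 2.97 (n = 3) and 37.5 ± 8.86 (n = 4) in the same order. A cell with less of the rule genes is less likely to be taken by the rule, which bears on every share below.

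The share of macrophages among all barcodes did not pass the test for either alteration, and their share among Tyrobp barcodes depended on the processing. They made up 0.375% ± 0.107 (SD, n = 3) of the barcodes in nTg, 0.46% ± 0.192 (n = 4) in Clec7a-KO, 0.63% ± 0.258 (n = 3) in SOD1G93A and 0.49% ± 0.233 (n = 4) in SOD1G93A/Clec7a-KO. The log2 share was higher by 0.381 with the transgene (two-sided exact permutation test within Clec7a states, p = 0.271, smallest possible p = 0.00143) and differed by -0.0813 with loss of Clec7a (exact permutation p = 0.808). Of the barcodes with Tyrobp, which include the microglia, they made up 0.916% ± 0.245, 0.887% ± 0.348, 0.757% ± 0.295 and 0.566% ± 0.28 in the same order of groups. That log2 share differed by -0.497 with the transgene (exact permutation p = 0.141). It differed by -0.983 (exact permutation p = 0.0186) when barcodes were thinned to 2000 UMIs before the rule was applied and shallower ones left out. With a rule sum of at least 20 per 10000, an alternative added after seeing the data, it differed by -0.878 (exact permutation p = 0.02). In both alternatives the difference with the transgene in the share among all barcodes turned slightly negative. Both ask more of the rule genes, whose sum was lower with the transgene. Their p-values thus cannot tell fewer macrophages from less of these genes per cell. Thinning left 7 macrophages in nTg replicate 3, 8 in Clec7a-KO replicate 2 and 9 in SOD1G93A/Clec7a-KO replicate 3. In the plot of shares by library, the groups overlap on both scales.

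**Figure D1:**
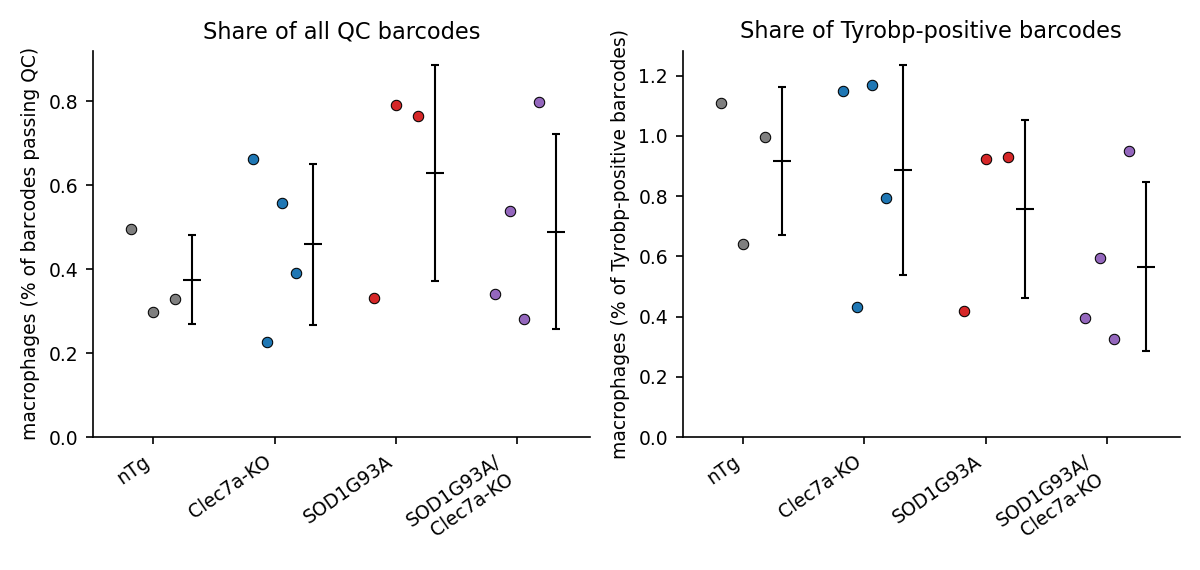
Share of border-associated macrophages per library (points) among all barcodes that passed quality limits (left, %) and among barcodes with Tyrobp (right, %), with the mean and SD of each group as bars beside the points. All 4 groups overlap in both panels, with means from 0.375% to 0.63% on the left and from 0.566% to 0.916% on the right.

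Antigen presentation genes varied widely among the macrophages of a library. The sum of H2-Aa, H2-Ab1, H2-Eb1 and Cd74 per 10000 UMIs had a median of 17.0 over the 465 cells, a lower quartile of 0.539 and an upper quartile of 273. There were 112 cells at 0 and 225 cells (48.4%) at 20 or more, a limit set after these values were seen, and 21 cells lay between 15 and 25. The cells at 20 or more had 0.174 Lyve1 UMIs per 10000 against 1.95 in the others, 0.786 against 1.97 of the folate receptor Folr2, and 5.45 against 9.66 of Stab1. The chemokine receptor Ccr2 went the other way, with 0.699 against 0.00921 per 10000. Lyve1 is part of the rule, and cells of a library are not replicates, so these values are a description.

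**Figure D2:**
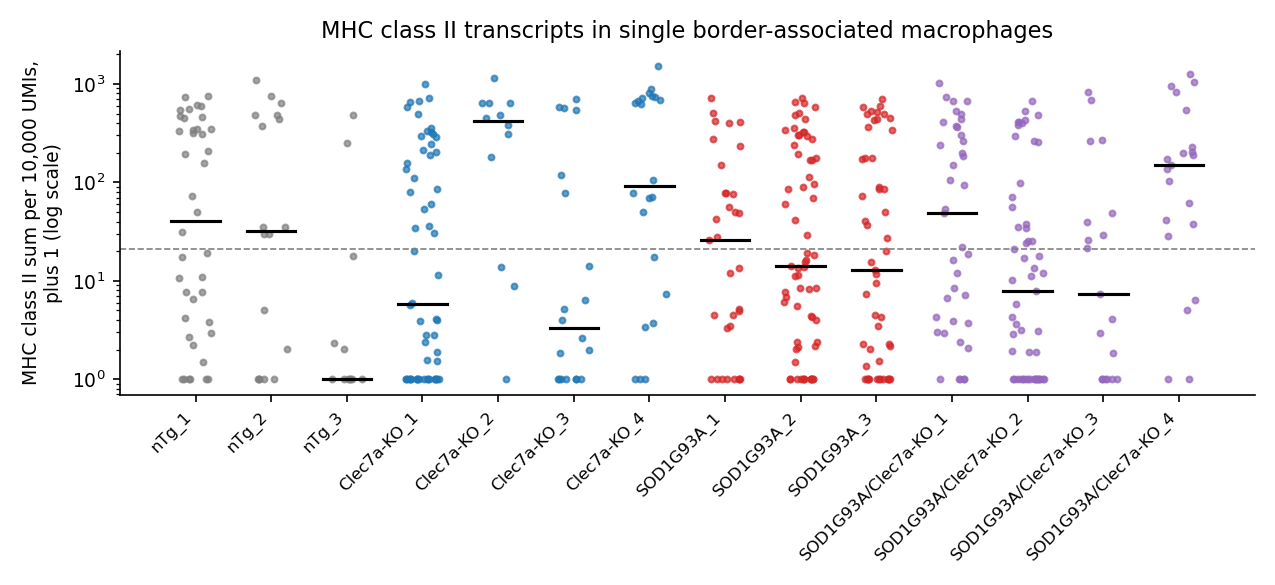
Sum of H2-Aa, H2-Ab1, H2-Eb1 and Cd74 per 10000 UMIs plus 1 (log axis) in each of the 465 macrophages (points) by library, with the library median as a black bar and 20 per 10000 as a dashed line. Cells at 0 or near it and cells above the dashed line occur in all 14 libraries, and 48.4% of all cells reach 20.

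At equal depth the share of macrophages with H2-Aa did not differ with the transgene beyond the spread. After thinning to 2000 UMIs, H2-Aa was detected in 39.5% ± 17.6 (SD, n = 3) of the macrophages in nTg, 53.2% ± 17.5 (n = 4) in Clec7a-KO, 45.5% ± 3.75 (n = 3) in SOD1G93A and 40.9% ± 16.4 (n = 4) in SOD1G93A/Clec7a-KO. The difference with the transgene was -3.17 percentage points (exact permutation p = 0.689). It was -10.8 points without the macrophages that held at least 2 of 4 microglial genes (exact permutation p = 0.209). That alternative also lost nTg replicate 3, which had 9 such cells left, under the limit of 10. Leaving out nTg replicate 3 alone gave -8.04 points. The share was 0.435% to 3.72% in microglia and 0.0683% to 0.15% in endothelial cells as group means. How much of the microglial share is free RNA was not tested. Beside 2.41% of all genes called with the transgene, none of the 8 MHC class II genes tested passed the edgeR test. Their median log2 fold change was -0.76 beside -0.03 over all genes, and all 8 estimates were negative. H2-Aa stood at 3560, 3470 and 1140 CPM in nTg and at 1520, 1700 and 2460 in SOD1G93A, so the groups overlap.

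The macrophages of nTg libraries carried Clec7a, and microglia of the same libraries carried less. In nTg the macrophages averaged 264 CPM ± 42.7 (SD, n = 3) and the microglia stood at 34.6, 28.4 and 77.4 CPM. With the transgene the macrophages averaged 404 CPM ± 145 (n = 3) and the microglia stood at 892, 1010 and 979 CPM. The log2 fold change of Clec7a in the macrophages was 0.62 between SOD1G93A and nTg (SE 0.31) and did not pass (edgeR adjusted p = 0.546). The difference between the classes was not tested among Clec7a-competent mice alone.

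With 4 groups as the only terms and a filter on low counts, edgeR called no gene with loss of Clec7a other than Clec7a itself. Among 3406 genes tested, edgeR called 1 (0.0294%) between SOD1G93A/Clec7a-KO and SOD1G93A and 1 (0.0294%) between Clec7a-KO and nTg, and none for the difference of the transgene effect between Clec7a states, where 111 genes had an unadjusted p under 0.05 and DESeq2 called 0. With the transgene DESeq2 called 2 genes and 151 had an unadjusted p under 0.05. Without it DESeq2 called 1 gene, 99 had an unadjusted p under 0.05, and edgeR called 2 with the replicate block and 2 with Xist above Ddx3y as a covariate. With no filter on low counts edgeR called 55 genes with the transgene, 56 without it and 126 for the difference. Of the 23 disease-associated genes tested, none passed between SOD1G93A/Clec7a-KO and SOD1G93A, with a median log2 fold change of -0.14 beside 0.03 over all genes. The 13 interferon response genes had a median of 0.42 and the 21 inflammatory genes of -0.41 in that comparison, and none of either list passed.

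The SOD1G93A transgene was accompanied by a rise of disease-associated genes in the macrophages. Averaged over both Clec7a states, edgeR called 82 of 3406 genes (2.41%), 69 higher (2.03%) and 13 lower (0.382%) with the transgene, and the transgenic and other libraries did not overlap for 38 genes (1.12%). The count was 3 without the 103 macrophages that held at least 2 of 4 microglial genes, 12 with a rule sum of at least 20 per 10000 and 38 with Xist above Ddx3y as a covariate, and the summed microglial markers averaged 4820 and 4740 CPM in the transgenic groups against 2210 and 2340 in nTg and Clec7a-KO. Of 23 genes of the disease-associated list that were tested, 12 rose, none fell and 22 had positive estimates, with a median log2 fold change of 1.42 beside -0.03 over all genes. The list and its members were chosen with earlier results of these data known and give no independent support for the direction. A gene held almost only by transgenic libraries could pass the count filter and could then only have a positive estimate. Itgax and Gpnmb had 218 and 295 UMIs with the transgene and 0 without it, and Cst7 had 1055 and 1. The counts and the median of the list are thus partly set by the filter. The SOD1G93A against nTg comparison alone called 17 genes (0.499%), 4 with Xist above Ddx3y as a covariate, and SOD1G93A/Clec7a-KO against Clec7a-KO called 8 (0.235%), all higher with the transgene. At an unadjusted p under 0.05 they had 330 and 302 genes, and DESeq2 called 44 and 23. In data simulated for SOD1G93A against nTg, edgeR called 6.5% of genes changed by 1 on the log2 scale and 82.4% of genes changed by 2. False calls numbered 0 of 13 and 12 of 176. The averaged count was 45 without SOD1G93A replicate 2 and 45 without nTg replicate 1. The count of SOD1G93A against nTg was 3 without SOD1G93A replicate 2, nTg replicate 1 or nTg replicate 3, 7 without nTg replicate 2 and 26 without SOD1G93A/Clec7a-KO replicate 4. That of SOD1G93A/Clec7a-KO against Clec7a-KO was 20, 3 and 2 without Clec7a-KO replicate 1, 2 and 3.

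The called genes of the list included Spp1, Cst7, Csf1, Itgax and Gpnmb. Spp1, the secreted phosphoprotein osteopontin, stood at 5.72, 31.0 and 9.46 CPM in nTg, at 26.7, 75.5, 29.8 and 10.4 in Clec7a-KO, at 265, 3530 and 2010 in SOD1G93A and at 2410, 2130, 156 and 350 in SOD1G93A/Clec7a-KO. Every transgenic library was above every other library, and SOD1G93A replicate 1 and SOD1G93A/Clec7a-KO replicates 3 and 4 were well below the remaining transgenic libraries. The log2 fold change of Spp1 was 6.19 (SE 0.81, edgeR adjusted p = 0.000535). Cst7, the endolysosomal protease inhibitor cystatin F, stood at 57.2, 515 and 396 CPM in SOD1G93A and at 426, 438, 63.9 and 194 in SOD1G93A/Clec7a-KO, against 1 UMI in all the macrophages of the other 7 libraries. The ratio of pooled counts of Cst7 was 526 (95% interval 94.2 to 20800, counting error only), and the edgeR adjusted p was 0.000343. Csf1, the growth factor that macrophages depend on, rose by 4.55 on the log2 scale (SE 0.62, edgeR adjusted p = 0.000711). The integrin Itgax and the glycoprotein Gpnmb, the latter also at 0 in SOD1G93A/Clec7a-KO replicates 3 and 4, were at 0 UMIs in the 7 libraries without the transgene, and with it were at least 36.2-fold and at least 49.0-fold higher, taken against 3 UMIs over the group (edgeR adjusted p = 0.00657 and 0.0198).

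The list also held Lpl, Ctsd, Trem2 and Fabp5 among its called genes. Lpl, lipoprotein lipase, stood at 8.58, 0 and 9.46 CPM in nTg, at 2.43, 33.6, 0 and 0 in Clec7a-KO, at 93.6, 319 and 356 in SOD1G93A and at 445, 374, 42.6 and 216 in SOD1G93A/Clec7a-KO, with no overlap between transgenic and other libraries. Its log2 fold change was 5.23 (SE 0.67, edgeR adjusted p = 0.000484). The lysosomal protease Ctsd stood at 1200, 1360 and 1580 CPM in nTg, at 1800, 789, 1570 and 1590 in Clec7a-KO, at 6450, 8760 and 6340 in SOD1G93A and at 7010, 14400, 3420 and 3820 in SOD1G93A/Clec7a-KO. The log2 fold change of Ctsd was 2.35 (SE 0.31, edgeR adjusted p = 0.000646). The lipid-sensing receptor Trem2 rose by 1.42 (SE 0.26, edgeR adjusted p = 0.0075), and the fatty acid binding protein Fabp5 by 3.29 (SE 0.62, edgeR adjusted p = 0.00832). The tetraspanin Cd9, the cathepsin Ctsz and the actin-capping protein Capg were the other called members of the list.

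**Figure D3:**
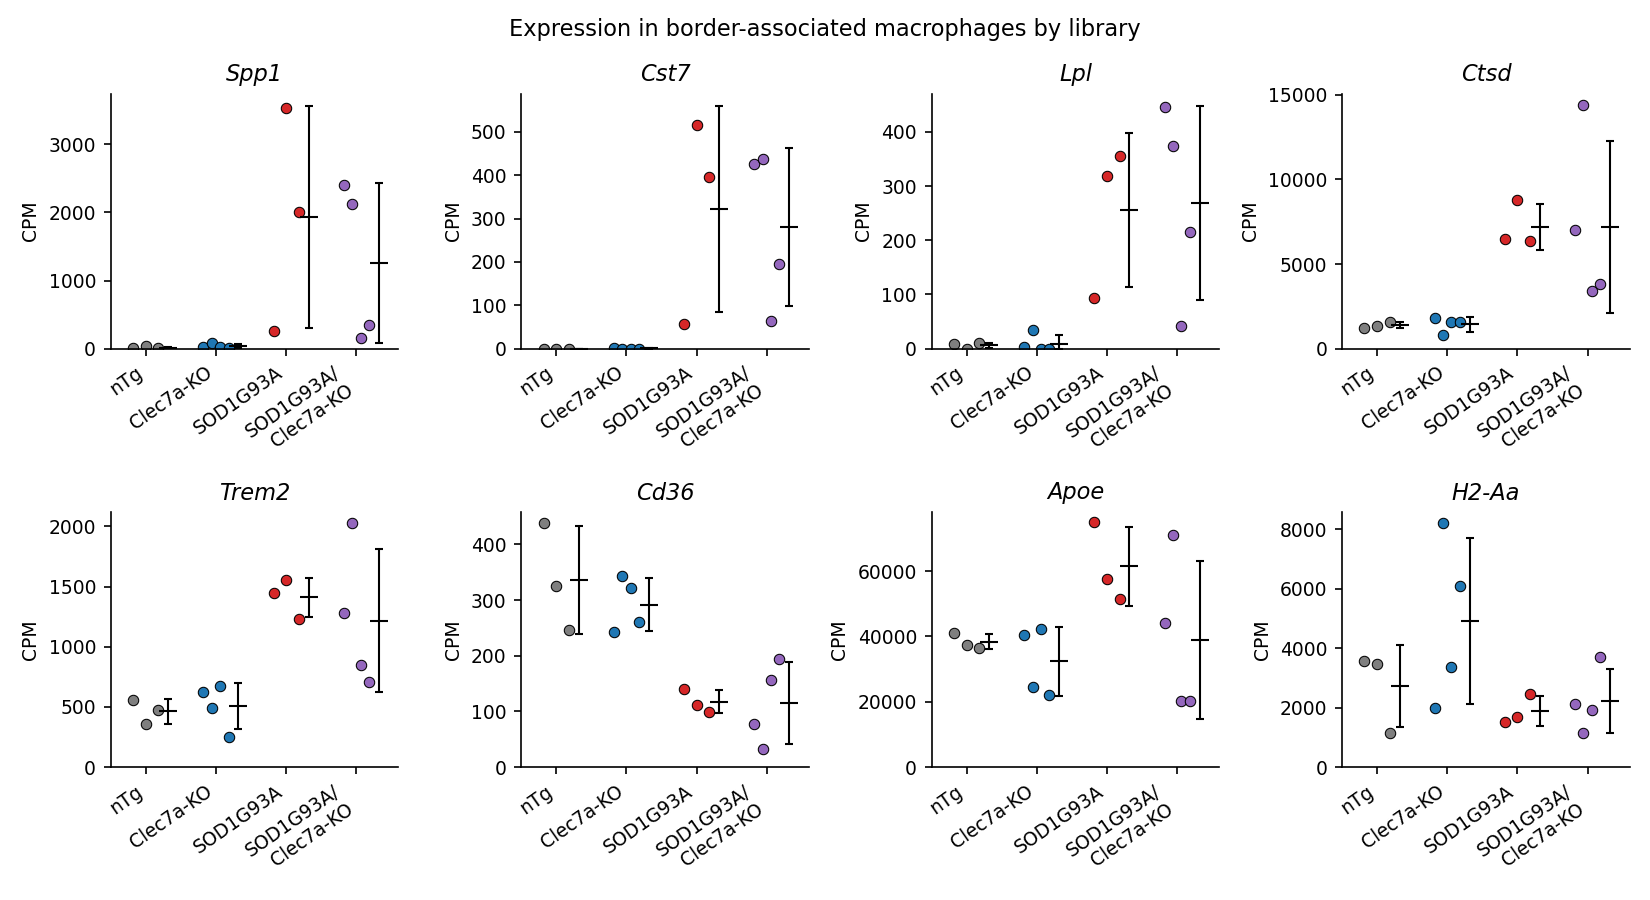
CPM of 8 genes in the summed border-associated macrophages of each library (points) by group, with the mean and SD of each group beside the points. Spp1, Cst7, Lpl, Ctsd and Trem2 are higher and Cd36 lower in every transgenic library than in every other library, whereas transgenic and other libraries overlap for Apoe and H2-Aa. For Apoe, every SOD1G93A library lies above every nTg library.

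Cd36 and Ccl24 were the identity genes that fell with the transgene. Of 25 identity genes tested outside the rule, 2 fell and none rose, beside 0.382% and 2.03% of all genes, and 6 had positive estimates. Their median log2 fold change was -0.32 beside -0.03 over all genes. Cd36, a scavenger receptor for oxidised lipoproteins, stood at 438, 325 and 246 CPM in nTg, at 243, 344, 321 and 260 in Clec7a-KO, at 140, 112 and 99.3 in SOD1G93A and at 77.8, 33.3, 156 and 194 in SOD1G93A/Clec7a-KO. No transgenic library reached the others, and the log2 fold change was -1.50 (SE 0.30, edgeR adjusted p = 0.0102). The eosinophil chemokine Ccl24 fell by 1.28 (SE 0.31, edgeR adjusted p = 0.0409), with overlapping libraries. Mgl2 fell by 0.93 (SE 0.22, edgeR adjusted p = 0.0309). The summed level of the 27 identity genes, most of it Apoe, averaged 52700 CPM in nTg, 48300 in Clec7a-KO, 72200 in SOD1G93A and 52300 in SOD1G93A/Clec7a-KO. Outside that list, the ubiquitin ligase Wwp1 fell by 0.98 and the endocytic adaptor Eps15 by 0.72 (edgeR adjusted p = 0.0112 and 0.0334), both with no overlap of libraries. Without the 103 macrophages that held at least 2 of 4 microglial genes, none of these 5 genes passed in edgeR, with log2 fold changes of -1.18 for Cd36, -0.87 for Ccl24, -0.75 for Mgl2, -0.69 for Wwp1 and -0.38 for Eps15 (adjusted p = 0.165, 0.459, 0.309, 0.225 and 0.537). With a rule sum of at least 20 per 10000, Cd36 passed and the other 4 did not. In the transgenic libraries Cd36 averaged 51.2 CPM ± 28.2 (SD, n = 7) in the macrophages with at least 2 microglial genes and 152 ± 67.7 in the others, against 311 ± 134 and 318 ± 77.4 without the transgene.

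Several other lists had at most 1 called gene each, where 2.41% of all genes were called with the transgene. So few calls in lists of this size are no result about the lists. Of 13 interferon response genes tested 12 had positive estimates (median 0.49 on the log2 scale) and none was called. Of 10 MHC class I genes 9 had positive estimates (median 0.36) and none was called. Of 21 inflammatory genes, Il1a, an interleukin 1 cytokine, was called with a rise of 2.60 on the log2 scale (SE 0.57, edgeR adjusted p = 0.0198). The median of that list was 0.36. None of 9 iron and haem genes (median 0.00) and none of 9 complement genes (median 0.37) was called. Of 21 dissociation stress genes, Rgs1, a regulator of G protein signalling, was called (log2 fold change 2.56), while 3 of the 21 estimates were positive, with a median of -0.30.

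Markers of microglia were higher in the macrophages of the transgenic groups, and their source was not tested. The summed level of the 12 microglial markers averaged 2210 CPM ± 427 (SD, n = 3) in nTg, 2340 ± 835 (n = 4) in Clec7a-KO, 4820 ± 661 (n = 3) in SOD1G93A and 4740 ± 363 (n = 4) in SOD1G93A/Clec7a-KO, and none of the 12 was at 0. Within that list 2 of 10 genes tested rose, beside 2.03% of all genes, among them the secreted protein Olfml3. P2ry12 averaged 107 CPM in both groups without the transgene, 122 in SOD1G93A and 139 in SOD1G93A/Clec7a-KO. Gfap, the intermediate filament of astrocytes, rose by 1.81 on the log2 scale (SE 0.34, edgeR adjusted p = 0.0079), to 90.0 CPM in the macrophages, 67.2 in microglia and 68.2 in endothelial cells of the transgenic libraries. It was 1 of 3 astrocyte genes tested and the single positive estimate, with a median log2 fold change of -0.82 for the list. The 6 astrocyte genes summed to 321 CPM in nTg, 455 in Clec7a-KO, 401 in SOD1G93A and 287 in SOD1G93A/Clec7a-KO. Macrophages with at least 2 of P2ry12, Tmem119, Sall1 and Siglech numbered 103, or 22.2%, and had a median of 11117 UMIs against 5780.5 in the others. They made up 20.6% ± 6.19 of the macrophages in nTg (n = 3), 19.1% ± 8.06 in Clec7a-KO (n = 4), 26.2% ± 3.99 in SOD1G93A (n = 3) and 17.7% ± 4.44 in SOD1G93A/Clec7a-KO (n = 4). The 4 genes need not stand at the same level in microglia with and without the transgene. These shares therefore do not compare microglial RNA between groups.

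In the 7 transgenic libraries, mean levels of Spp1, Cst7, Lpl and Ctsd were higher in the macrophages with at least 2 of the 4 microglial genes. Cst7 ranged from 0 CPM in SOD1G93A replicate 1 to 310 CPM in SOD1G93A/Clec7a-KO replicate 2 in macrophages with fewer than 2 of the 4 microglial genes, and no other library exceeded 96.3 CPM. It averaged 621 CPM ± 345 (SD, n = 7) in macrophages with 2 or more, 1080 ± 238 in microglia and 13.2 ± 2.8 in endothelial cells. Lpl averaged 87.1 ± 86.1, 563, 908 and 8.49 CPM and Ctsd 3690 ± 2980, 13200, 22300 and 449 CPM in macrophages with fewer than 2, macrophages with 2 or more, microglia and endothelial cells. Spp1 ranged from 76.0 to 4420 CPM in macrophages with fewer than 2 microglial genes and averaged 76.5 CPM in endothelial cells. In SOD1G93A replicate 2, Spp1 was lower in the macrophages with 2 or more microglial genes, at 2810 against 4420 CPM. In the 7 libraries without the transgene, macrophages with fewer than 2 microglial genes held Spp1 at 34.4 CPM ± 29.6, against 2.71 ± 7.18 in those with 2 or more, Cst7 at 0 and Ctsd at 1200 ± 394. Without the 103 cells, edgeR called 3 genes, namely Sod1, the processed pseudogene Gm8566 and Spp1 (log2 fold change 5.04, edgeR adjusted p = 0.0391), among 2385 genes tested. Cst7 then had a log2 fold change of 6.72, Lpl 4.26, Ctsd 1.55 and Cd36 -1.18, and the adjusted p of these was between 0.147 and 0.165 (edgeR). With a rule sum of at least 20 per 10000, an alternative added after seeing the data, 364 macrophages remained and edgeR called 12 genes, among them Spp1 (log2 fold change 4.26, adjusted p = 0.00479), Cst7 (5.93, 0.0179) and Cd36 (-1.16, 0.0326). The part of microglial RNA in the other calls was not tested, and macrophages with fewer than 2 of the 4 microglial genes can still hold such RNA.

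**Figure D4:**
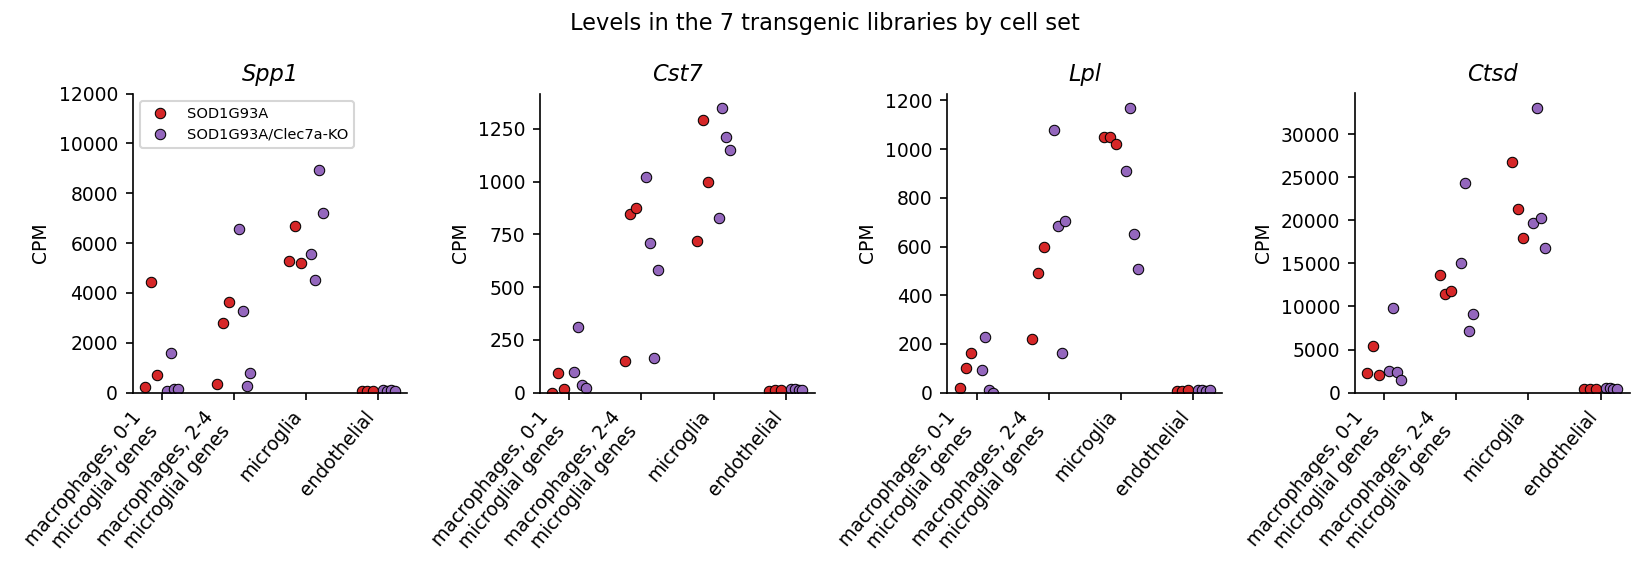
CPM of Spp1, Cst7, Lpl and Ctsd in the 7 transgenic libraries (points, coloured by group) for macrophages with 0 or 1 and with 2 to 4 of the microglial genes P2ry12, Tmem119, Sall1 and Siglech, for microglia and for endothelial cells. Cst7 lies between 0 and 310 CPM in the leftmost set, and its mean is 621, 1080 and 13.2 CPM in the others from left to right.

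At equal depth, fewer macrophages than microglia held Spp1 and Cst7 in the transgenic groups. After thinning to 2000 UMIs, Spp1 was detected in 3.7% ± 6.41 (SD, n = 3) of the macrophages in nTg, 5.23% ± 3.66 (n = 4) in Clec7a-KO, 27.3% ± 7.29 (n = 3) in SOD1G93A and 33.6% ± 7.12 (n = 4) in SOD1G93A/Clec7a-KO. Without the transgene the share was 0.0% in nTg replicates 1 and 3 and Clec7a-KO replicate 4, and 11.1% (2 of 18 cells) in nTg replicate 2. In microglia without the transgene it was 1.39% in nTg and 1.8% in Clec7a-KO. In the 2 transgenic groups Spp1 was detected in 60.8% and 63.8% of microglia and in 11.8% and 16.5% of endothelial cells. Cst7 was detected in 13.5% ± 5.03 and 16.7% ± 4.98 of the macrophages, 63.0% and 64.2% of microglia and 2.0% and 2.83% of endothelial cells of these groups. These shares are descriptions without a test. Median depths before thinning lay between 4193 and 9970 UMIs in the macrophages.

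The transgene effect differed between the macrophages and the microglia of the same libraries for many genes. A fit over both classes with a term per library called 1032 of 3406 genes (30.3%). The log2 difference, macrophages minus microglia, was positive for 473 (13.9%) and negative for 559 (16.4%). It is signed, so a positive difference can be a larger rise in the macrophages or a smaller fall than in microglia. The count includes 6 genes that chose the microglia, which are not read further. By the means in CPM, 337 of the called genes were lower in the macrophages and higher in microglia with the transgene, and 203 were the reverse. Another 310 were higher in both classes and 182 lower in both.

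Only genes that passed the count filter in the macrophages were compared, so genes absent from them could not be called. Apoe, the lipid carrier apolipoprotein E, stood at 41000, 37500 and 36600 CPM in the macrophages of nTg and at 75100, 57700 and 51600 in those of SOD1G93A. In Clec7a-KO it stood at 40400, 24500, 42300 and 22200 CPM and in SOD1G93A/Clec7a-KO at 44200, 71000, 20300 and 20200, so transgenic and other libraries overlap. SOD1G93A and nTg alone did not overlap. In microglia Apoe stood at 1680, 1270 and 2230 CPM in nTg and at 99400, 71400 and 61700 in SOD1G93A. Averaged over both Clec7a states, the log2 change in the macrophages was 0.47 (edgeR adjusted p = 0.518), and the difference between classes was -4.64 (SE 0.20, edgeR adjusted p = 1.47e-10). Ms4a7 averaged 761 CPM without and 636 with the transgene in the macrophages and 0.431 and 68.4 CPM in microglia, a difference of -7.15 on the log2 scale (SE 0.42, edgeR adjusted p = 4.6e-09). The growth factor Igf1 differed by -7.08 (edgeR adjusted p = 2.49e-09), the superoxide-generating oxidase subunit Cybb by -4.36 (1.54e-11) and the scavenger receptor Msr1 by -4.98 (4.11e-09).

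A negative difference between classes was called for 10 of 23 genes of the disease-associated list, beside 16.4% of all genes, and a positive one for none. The 10 genes were Apoe, Igf1, Cd63, Lyz2, Ctsb, Cd68, Axl, Ccl6, Ctsz and Ank. Lysozyme, Lyz2, averaged 9050 CPM in the macrophages of nTg and 8940 in those of SOD1G93A, and the log2 difference between classes was -3.84 (edgeR adjusted p = 1.88e-08). For Spp1, Lpl, Ctsd and Trem2 the difference did not pass (log2 differences -0.30, 1.40, 0.23 and 0.27, edgeR adjusted p = 0.888, 0.186, 0.449 and 0.329), which does not show that the classes responded alike. A negative difference was called for 6 of 8 MHC class II genes, beside 16.4% of all genes. H2-Aa averaged 5.57 CPM in microglia of nTg and 28.0 in those of SOD1G93A, against 2720 and 1900 CPM in the macrophages (log2 difference -3.14, edgeR adjusted p = 0.00146).

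Other genes had a positive difference between classes and lower means in microglia with the transgene. The selectin ligand Selplg averaged 97.4 CPM without and 190.0 with the transgene in the macrophages and 1230 and 639 CPM in microglia, and its log2 difference was 2.42 (SE 0.21, edgeR adjusted p = 4.03e-07) while that of the fractalkine receptor Cx3cr1 was 1.61 (SE 0.20, edgeR adjusted p = 2.49e-05). Of 21 dissociation stress genes, 13 had a called positive difference, beside 13.9% of all genes, and none a called negative one. Their median difference was 0.64 beside 0.04 over all genes. Their summed level in microglia averaged 32400 CPM in nTg, 36000 in Clec7a-KO, 23000 in SOD1G93A and 23800 in SOD1G93A/Clec7a-KO. In the macrophages it averaged 32200, 40900, 27600 and 30700 CPM in the same order, so the positive difference goes with a smaller fall there. The part of these genes in the other differences was not tested.

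**Figure D5:**
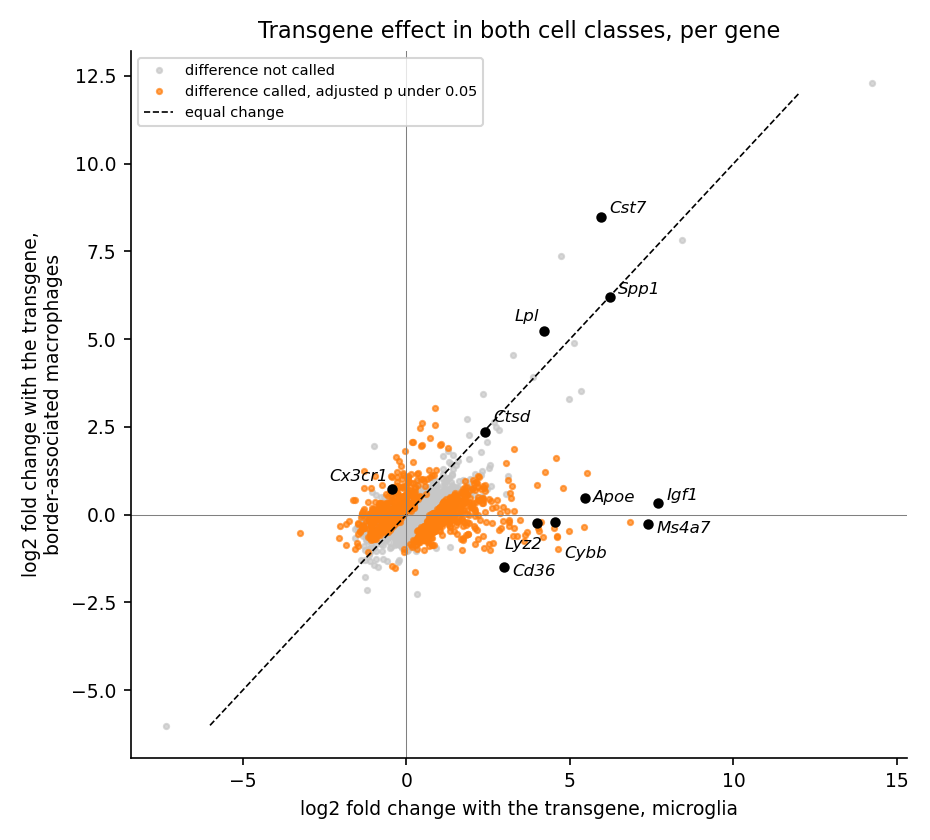
Log2 fold change with the transgene per gene in microglia (x axis) and in border-associated macrophages (y axis), averaged over both Clec7a states, with genes whose difference between classes was called in orange and equal change as a dashed line. Apoe, Ms4a7 and Igf1 lie far to the right near 0 on the y axis, with class differences of -4.64, -7.15 and -7.08, whereas Spp1 and Ctsd lie near the dashed line.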

How the data were processed

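Members, gene lists and tests were chosen with earlier results of these data known. The deposited values were raw UMI counts per gene and barcode, 1 matrix per library. Per the submitters' processing notes, Cell Ranger, Seurat and DESeq2 were used with build mm10. The matrix headers name software version 3.0.2. The rule by which cells were called is not given in the sources used here, and nor is the use of strand, so overlapping genes cannot be told apart. Doublets were marked by the highest Scrublet scores and removed only in an alternative (32 of 465 macrophages).

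Counts of the macrophages were summed per library and fitted with edgeR 4.0.16 (R 4.3.3; TMM, filterByExpr, quasi-likelihood, 14 libraries, 4 groups, two-sided, Benjamini-Hochberg over all genes tested, threshold 0.05). The 7 genes of the rule were left out of the tests. The SE is the log2 fold change over the square root of F. Log2 fold changes of genes near 0 UMIs depend on the prior count. Comparison between classes added a term per library, on microglia and macrophages of the same libraries. Levels split by microglial genes are CPM of raw sums for the macrophages. Shares were tested by exact permutation within strata. The least level told from 0 was 3 UMIs. Intervals and floors cover counting error only. Named genes were up to 10 per direction and comparison with the largest log2 fold change, at least 50 CPM and groups that do not overlap, up to 4 members of each list by level and up to 4 by change, and up to 10 by ratio to microglia (5 CPM added, at least 100 CPM, rule genes left out). Called members of a list that fall outside this rule, such as Trem2, Fabp5, Cd9, Ctsz and Capg, were named after their values were seen. For the comparison between classes the overlap was judged on the ratio per library. A few genes are not reported here. Positions are from GENCODE vM21, where 54587 of 55335 versioned gene identifiers were found. The edgeR script was tested on simulated data. With the transgene averaged, 55% of genes changed by 1 and 91% of genes changed by 2 on the log2 scale were called. Of 113 and 191 calls, 3 and 10 were false. The simulated spread of a gene followed the trend over expression level, so recovery in the data can differ. With no class difference neither edgeR nor limma 3.58.1 called a gene between classes. Alternatives were DESeq2 1.42.0, no filter, leaving out libraries, covariates, stricter rules for the macrophages and thinning.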

Additional observations from a re-analysis of the deposited data

Results flagged for a closer look

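A library was flagged by a limit that marks about 1 in 20 groups of independent, normally distributed values. CPM near 0 and related genes of a library are not such values. Within groups of 4 libraries, 27 of 207 groups of values had a library far from the other 3, and no excess over chance is read from this. In the macrophages of Clec7a-KO replicate 1 these were vessel genes, with Flt1 at 807 CPM, Cldn5 at 809, Ly6c1 at 858, Itm2a at 442 and Vtn at 277, together with Fn1 at 97.2, Lgals3bp at 99.7 and single UMIs of Cst7 (2.43 CPM) and Clec7a (2.43 CPM). Itm2a was also high in SOD1G93A/Clec7a-KO replicate 1, at 616 CPM, where Fth1 was low at 9020 CPM. Clec7a-KO replicate 2 had Lpl at 33.6 CPM and Rgs1 at 168 CPM. Clec7a-KO replicate 3 had Wwp1 at 440 CPM, Hsd17b11 at 134 and Dab2 at 1540. Clec7a-KO replicate 4 had Ifitm3 at 1890 CPM, Trf at 2990, Jund at 7290 and Tyrobp at 2800, and Pag1 at 0. SOD1G93A/Clec7a-KO replicate 4 had H2-K1 at 1360 CPM, Psmb8 at 387 and Ccl4 at 5630. SOD1G93A/Clec7a-KO replicate 2 had Tyrobp at 4560 CPM and Igf1 at 363, and replicate 3 of that group had Bmp2 at 270 CPM.

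The transgene effect differed between the macrophages and microglia by a test of the difference itself in 19 named genes. The log2 difference (macrophages minus microglia) was 2.42 for Selplg, 2.24 for Golm1, 2.21 for Fscn1, 1.99 for Smad7, 1.90 for Tsc22d3, 1.83 for Pag1, 1.75 for Socs3, 1.61 for Cx3cr1 and 1.61 for Txnip. It was -7.15 for Ms4a7, -7.08 for Igf1, -5.18 for Wfdc17, -4.98 for Msr1, -4.98 for Stap1, -4.64 for Apoe, -4.47 for Gas7, -4.44 for Lilr4b, -4.36 for Cybb and -4.26 for Clec12a.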

How the results depend on the processing

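For the transgene averaged over Clec7a states (82 genes), calls numbered 226 with no filter, 38 with Xist as a covariate, 3 without members with microglial markers and, as alternatives added after seeing the data, 12 with a rule sum of at least 20. For SOD1G93A against nTg (17) they numbered 202, 4, 2 and 7 in that order, 11 with the library number as a covariate, 31 without libraries 13 to 16 (added) and 44 in DESeq2. For SOD1G93A/Clec7a-KO against Clec7a-KO (8) they numbered 112 with no filter, 5 with at least 4 of 6 rule genes, 2 without members with microglial markers, 2 with a rule sum of at least 20, 13 without libraries 13 to 16 and 23 in DESeq2. With at least 4 of 6 rule genes, Clec7a-KO replicate 2 held 8 macrophages and was left out. Leaving out that library alone gave 3. The Clec7a comparisons (1 each) gave 55 and 56 with no filter, the former 2 in DESeq2 and the latter 2 with Xist as a covariate. The interaction (0) gave 126 with no filter.

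The labels do not say that replicate numbers pair the libraries, and the main fit did not pair them. Correlations of deviations exceeded 0.1 in 9 of 19 pairs with the same number (-0.112 to 0.463, median 0.0985) and not in all. They did so in 10 of 54 pairs with different numbers (median -0.0356). Pairs with the same number were thus more alike by the median, and whether they share a batch was not tested. With the replicate block the counts were 25, 8, 1, 2, 101 and 0 for SOD1G93A against nTg, SOD1G93A/Clec7a-KO against Clec7a-KO, the Clec7a comparisons with and without the transgene, the average and the interaction. Leaving out each library gave 3 to 26, 2 to 20, 1 to 1, 1 to 1, 45 to 93 and 0 to 1 in that order, and 868 to 1155 for the class difference. The averaged count was 45 without SOD1G93A replicate 2 and 45 without nTg replicate 1. limma on log2 ratios (added) called 1146 genes between classes, 953 of them shared with edgeR.

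The log2 share of barcodes with the transgene was -0.0387 after thinning and -0.000408 with a rule sum of at least 20, and 0.23 to 0.586 leaving out each library. With Clec7a loss it was 0.0124 with at least 4 rule genes, 0.0102 without members with microglial markers, and -0.286 to 0.0704 leaving out each library (0.0273, 0.0148, 0.0325, 0.0293 and 0.0704 where the sign turned). The share of Tyrobp barcodes was -0.983 after thinning, -0.878 with a rule sum of at least 20 and -0.652 to -0.305 leaving out each library. The H2-Aa difference was 4.89 points unthinned and -8.04 to 0.483 leaving out each library (0.483 and 0.467 where the sign turned). It was -10.8 without members with microglial markers (exact permutation p = 0.209). That setting also lost nTg replicate 3, whose omission alone gave -8.04. The cause of these changes was not tested. The smallest libraries held 12 macrophages, which limits the precision for genes with few UMIs.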

Other observations

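Cells in division were few among the macrophages. Mki67 and Top2a were both detected in 7 of 465 cells, of which 3 were in SOD1G93A replicate 3 and 2 in SOD1G93A replicate 2. Mki67 stood at 352 CPM in Clec7a-KO replicate 2, which held 12 macrophages, of which 1 had both genes. The share of cells with an MHC class II sum of at least 20 per 10000 was 16.7% in nTg replicate 3 and 81.0% in SOD1G93A/Clec7a-KO replicate 4, the lowest and highest of the 14 libraries.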
